A study of Homo sapiens with 8 samples.

Results

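The TCF/LEF transcription factors, coactivators that they share with beta-catenin, and feedback targets that they switch on were examined in RKO cells, a human colon carcinoma line without the APC or beta-catenin mutations common in that cancer. The group was defined by gene name, with earlier results of these data known, and it holds 10 of the 57992 genes in the count files. These were the factors TCF7, TCF7L1, TCF7L2 and LEF1, the coactivators BCL9 and PYGO2, and the feedback targets AXIN2, NKD1, SP5 and NOTUM. RNAseq was performed on 8 samples, 4 with control siRNA and 4 with A20 siRNA, and both groups had received 50 ng/mL of recombinant wnt3a for 24 hours. Every sample was therefore stimulated, so the levels below are levels after wnt3a, and induction by wnt3a could not be measured. The line carried no other labelled modification, the samples are of a cultured line and not of tissue, and the labels do not state whether replicates came from separate cultures. The methods say in general that experiments were repeated independently, without saying how the RNAseq replicates relate to those repeats. If the replicates were not independent, the p-values cover only the spread between these samples.

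When wnt-signaling is off, TCF/LEF proteins sit on their target genes together with TLE corepressors and keep them silent. Wnt ligands stop the destruction of beta-catenin, which then enters the nucleus, binds TCF/LEF and recruits BCL9 and PYGO proteins, p300/CBP and chromatin-modifying complexes that turn the same genes on. Several of the induced genes feed back on the pathway. AXIN2 rebuilds the complex that destroys beta-catenin, NKD1 acts on Dishevelled, NOTUM removes the lipid that Wnt ligands need, and SP5 is a transcription factor that dampens other Wnt targets.

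Total counts were between 23912317 and 30022486 with control siRNA and between 21226451 and 34194273 with A20 siRNA, and the libraries with A20 siRNA replicate 1 and replicate 4 were the deepest and the shallowest. A count of 3 corresponds to 0.0877 to 0.141 CPM at these depths, which covers counting error only. TNFAIP3, which encodes A20, fell to 60.8% of its control level, with no overlap between groups (log2 fold change -0.71, standard error 0.10). Its adjusted p was 0.00258 in the quasi-likelihood test of edgeR, adjusted over all tested genes by the Benjamini-Hochberg method. CPM (counts scaled to library size, after TMM normalization) are used to compare samples. Of the colon epithelial markers, KRT8, KRT18, EPCAM and CDX2 were detected in every sample, whereas CDH1 and KRT19 had no read in any sample, CLDN4 had 1 to 4 reads per sample, and VIL1, LGALS4, CDH17 and GPA33 had at most 3 reads over all 8. Of 14 fibroblast, immune and endothelial markers, CD68 at 1.48 to 2.80 TPM was the only gene that passed the count filter.

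The upstream regions show which of these genes carry TCF/LEF recognition letters close to a RefSeq start. RefSeq windows (GRCh38.p14, 250 bases before to 50 after a start) were matched by symbol for 7 of the 10 genes, in 10 windows, and AXIN2, NKD1 and NOTUM had no window. The core was searched on both strands in 4 forms. These were CTTTGAT, the form CTTTGTT, the form CTTTGAA and the form CTTTGTA. Of these windows 3 of 10 held a core, against 13.8% of all 35116 windows. SP5 (chr2:170715087-170715386, plus strand) held 3 copies that begin 148, 109 and 84 bases before its start. The second start of TCF7 (chr5:134123368-134123667, plus strand) held 1 copy that begins 50 bases before it, and the second start of TCF7L2 held 1 as well. The windows of LEF1, BCL9, PYGO2 and TCF7L1 and the other starts of TCF7 and TCF7L2 held none. The only LEF1 window (chr4:108166252-108166551, minus strand) lies inside the gene, which extends to 108168956. The windows of PYGO2 and TCF7 also lie inside their genes. For these genes the sequence before the outermost annotated start was not searched. The window of TCF7L1 (chr2:85133142-85133441, plus strand) is printed as that of the gene with almost no reads. Capitals mark the core or its reverse complement, and a match describes letters and not binding.
SP5: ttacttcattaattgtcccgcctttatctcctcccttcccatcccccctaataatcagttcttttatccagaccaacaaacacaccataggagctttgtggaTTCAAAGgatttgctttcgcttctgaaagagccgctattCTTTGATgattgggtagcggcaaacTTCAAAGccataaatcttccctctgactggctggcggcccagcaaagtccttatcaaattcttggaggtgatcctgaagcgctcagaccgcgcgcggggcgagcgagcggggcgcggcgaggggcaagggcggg
TCF7 second start: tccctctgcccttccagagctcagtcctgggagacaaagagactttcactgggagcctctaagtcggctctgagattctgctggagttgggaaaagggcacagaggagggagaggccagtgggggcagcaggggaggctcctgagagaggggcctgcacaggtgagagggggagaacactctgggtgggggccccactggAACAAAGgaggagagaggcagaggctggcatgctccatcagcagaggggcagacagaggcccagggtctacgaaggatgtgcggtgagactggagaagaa
TCF7L1: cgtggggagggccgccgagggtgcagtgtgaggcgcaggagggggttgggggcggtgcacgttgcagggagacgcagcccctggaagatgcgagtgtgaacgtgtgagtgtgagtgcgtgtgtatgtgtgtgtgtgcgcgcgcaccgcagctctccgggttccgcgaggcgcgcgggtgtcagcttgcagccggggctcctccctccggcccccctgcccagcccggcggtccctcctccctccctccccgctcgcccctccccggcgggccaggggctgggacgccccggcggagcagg

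Per length, the 10 genes spanned from no read to 91.1 TPM. TPM here is the count divided by exonic length and scaled so that every sample has the same sum, so that genes can be compared with each other. The coactivator PYGO2 was the most abundant, then came LEF1, BCL9, TCF7L2 and TCF7, and the 4 feedback targets and TCF7L1 were the lowest. In all 8 samples each gene was above the next in this order. The ranges over samples nevertheless overlapped between BCL9 and TCF7L2, between NKD1 and SP5, and between SP5 and AXIN2. The order in the middle of the list, and between SP5 and AXIN2, depended on the length used. With the length of the longest transcript in place of the union of exons, BCL9 (18.0 TPM) came below TCF7L2 (26.8) and TCF7 (18.6). TCF7 was then above BCL9 in 7 of 8 samples, and SP5 above AXIN2 in 4 of 8. NKD1 had the longest exonic length of the 10 (17359 bases), and its longest transcript (17039 bases) is nearly as long. Its TPM depends on that length. In CPM its control mean was 15.45, against 31.96 for TCF7 and 3.19 for AXIN2.

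**Figure D1:**
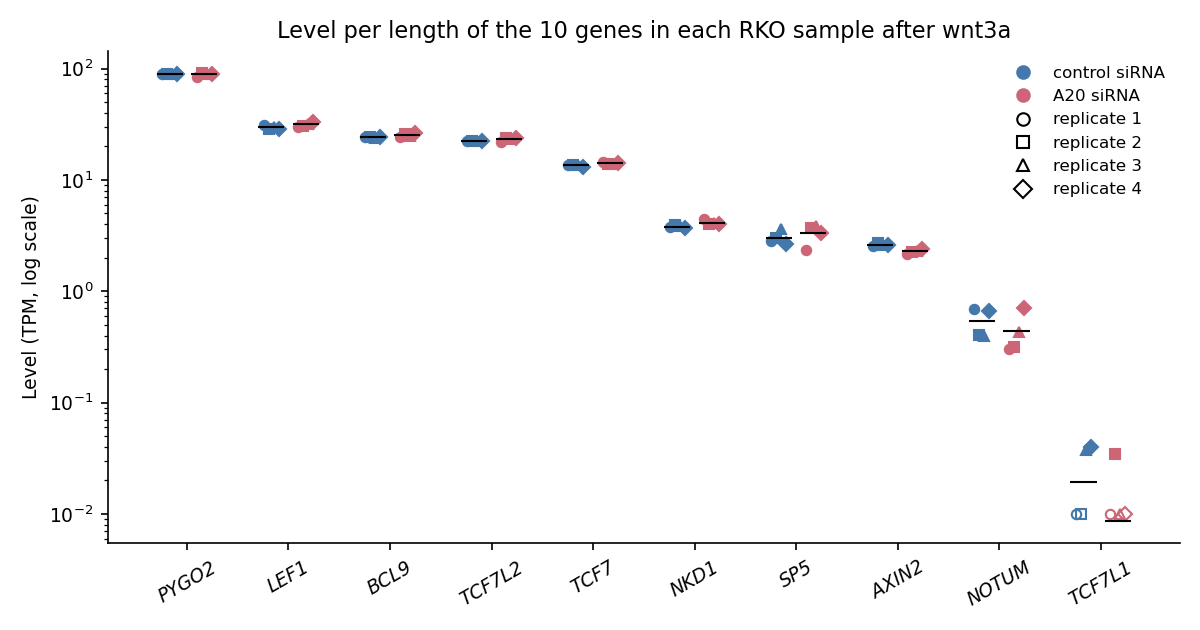
Level in TPM (log axis) of each of the 10 genes in each of the 8 samples, with control siRNA in blue and A20 siRNA in red, the replicate number as symbol shape and the mean of each group as a black line. Open symbols at the bottom are samples with no TCF7L1 read. PYGO2 lies near 90 TPM, 4 genes lie between 13.1 and 33.5 TPM, and the feedback targets lie below 4.5 TPM.

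Of the 10 genes, 8 had enough counts to be tested (edgeR's expression filter with a minimum count of 10), as did 13412 genes in all, and TCF7L1 and NOTUM did not. At an adjusted p-value under 0.05 none of the 8 was called between A20 siRNA and control siRNA in edgeR's quasi-likelihood test, where 1.25% of all tested genes were (0.634% higher and 0.611% lower). DESeq2, which gave no adjusted p for AXIN2 and SP5, and limma-voom also called 0. At an unadjusted p-value under 0.05 edgeR counted 1 of the 8, NKD1, against 16.2% of all genes. Their log2 fold changes ran from -0.22 to 0.12 with a median of 0.05, beside a median of 0.00 over all tested genes, and 6 were above 0 and 2 below, where 48.4% of all tested genes were below. With a correction for exonic length and GC content the median of the 8 was 0.025, beside -0.015 over all tested genes. Without A20 siRNA replicate 2 the median of the 8 was 0.028, beside 0.001. The corrected fold changes of single genes below carry the same shift of the all-gene median. The groups did not overlap for 2 of the 8, against 7.61% of all tested genes. AXIN2 was lower in every A20 siRNA sample than in every control sample, as were 3.9% of all tested genes, and NKD1 was higher, as were 3.71%.

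**Figure D2:**
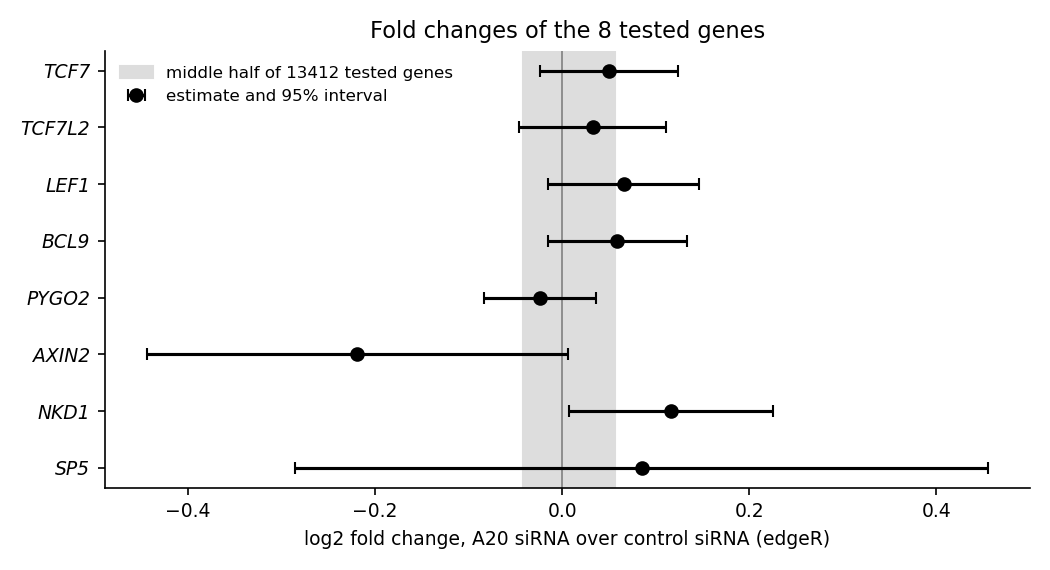
Log2 fold change of A20 siRNA over control siRNA (horizontal axis) for the 8 tested genes, with 95% intervals as bars and the middle 50% of all 13412 tested genes in grey. All intervals but that of NKD1 include 0, and the intervals of AXIN2 and SP5, the genes with the fewest reads, are the widest.

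LEF1, TCF7L2 and TCF7 were expressed and TCF7L1 was not detectable at this depth. In bulk samples such as these, fewer cells that express a gene and less of its RNA per cell cannot be told apart. TCF7L1 (chromosome 2, 85133392 to 85310387, GRCh38), known mostly as a repressor among these factors, had a total of 3 reads over all 8 samples. Control replicates 3 and 4 and A20 siRNA replicate 2 had 1 read each and the other 5 samples had 0, which is below the 3 counts that these depths could distinguish from none. No fold is given for it.

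LEF1 (chromosome 4, 108047545 to 108168956), which relies on beta-catenin to activate its targets, was the most abundant of the 4 per length. Its control samples, in order of replicate number, had 38.7, 36.0, 37.5 and 36.3 CPM, and its A20 siRNA samples had 37.2, 38.4, 39.3 and 41.3 CPM. The groups overlapped, with A20 siRNA replicates 1 and 2 within the range of the control samples. The means were 37.1 ± 1.24 and 39.1 ± 1.73 CPM (SD, n = 4 each), and the log2 fold change of 0.07 (95% interval -0.01 to 0.15) did not pass (adjusted p = 0.418, edgeR).

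TCF7L2 (chromosome 10, 112950247 to 113167678) encodes TCF4, the main TCF of the intestinal epithelium. It had 34.5, 35.2, 35.7 and 35.7 CPM with control siRNA and 34.0, 37.7, 36.3 and 36.6 CPM with A20 siRNA. Replicate 1 of A20 siRNA was the lowest of all 8 samples and the other 3 were the highest, so the groups overlapped. Its log2 fold change was 0.03 (95% interval -0.05 to 0.11, adjusted p = 0.725, edgeR), and with the length and GC correction it was 0.014.

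TCF7 (chromosome 5, 134114681 to 134151865) encodes TCF1, which is made in forms with and without the part that binds beta-catenin, and gene counts do not separate them. Levels were 31.9, 32.1, 32.3 and 31.5 CPM with control siRNA and 34.2, 32.8, 32.2 and 32.9 CPM with A20 siRNA. Only A20 siRNA replicate 3 fell within the control range. A log2 fold change of 0.05 was estimated (95% interval -0.02 to 0.12, adjusted p = 0.517, edgeR), and with the length and GC correction it was 0.01.

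Seen as a pool, the 4 factors summed to between 63.9 and 71.2 TPM per sample. LEF1 made up 44.4% to 47.0% of this sum over the 8 samples, TCF7L2 32.8% to 34.9%, and TCF7 19.9% to 22.0%. The shares with control siRNA were 45.15% ± 1.00, 34.17% ± 0.815 and 20.65% ± 0.255 (SD, n = 4), and with A20 siRNA 45.73% ± 1.01, 33.7% ± 0.929 and 20.56% ± 0.997 (SD, n = 4). The differences in these means were smaller than the SD of the A20 siRNA samples. TCF7L1 contributed at most 0.0628% in any sample. These shares use the union of exons and depend on the length used. With the longest transcript as length, LEF1 made up 40.75% to 43.3%, TCF7L2 33.18% to 35.37% and TCF7 23.05% to 25.46%.

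**Figure D3:**
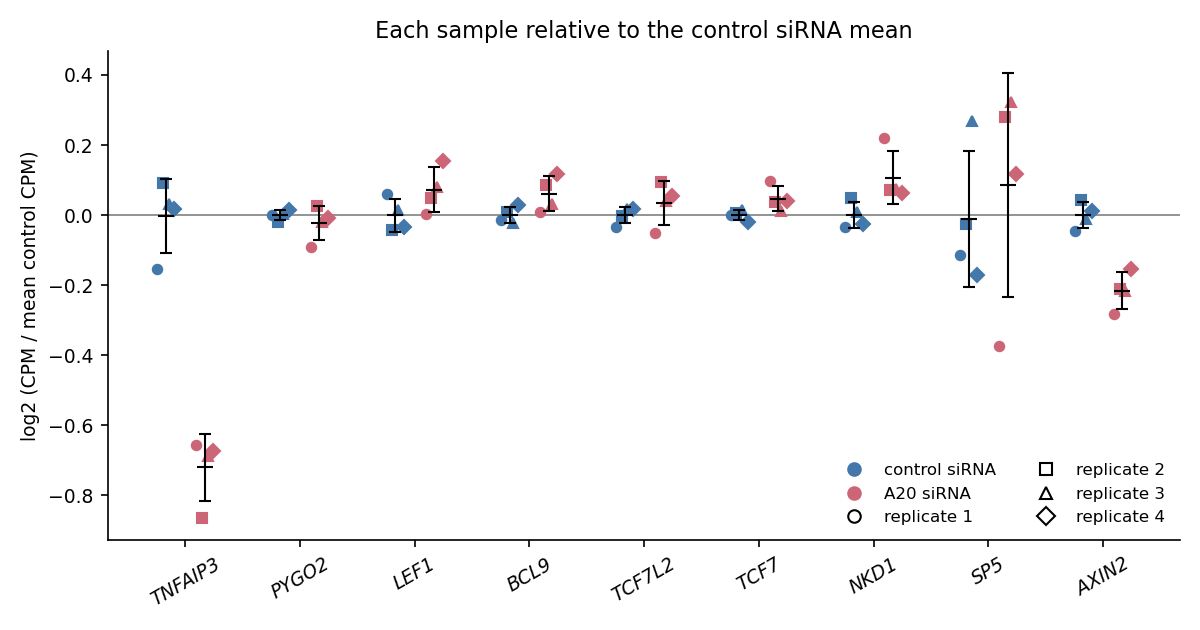
Level of each sample as log2 of its CPM over the mean CPM of the control samples (vertical axis), for TNFAIP3 and the 8 tested genes, with control siRNA in blue, A20 siRNA in red, symbol shape for the replicate number and black bars for mean ± SD (n = 4). TNFAIP3 and AXIN2 have all A20 siRNA samples below all control samples, NKD1 has them above, and in the other genes the groups overlap.

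BCL9 and PYGO2 encode the adaptor pair that links beta-catenin to the transcription machinery, with BCL9 binding beta-catenin and PYGO2 binding BCL9 and methylated histone H3. BCL9 (chromosome 1, 147541501 to 147626216) had 35.3, 35.9, 35.1 and 36.4 CPM with control siRNA and 35.9, 37.8, 36.5 and 38.7 CPM with A20 siRNA. The groups overlapped. BCL9 was higher with A20 siRNA in all 4 same-numbered pairs, but whether the replicate numbers pair the samples is not settled by these data. For BCL9 the log2 fold change was 0.06 (95% interval -0.01 to 0.13, adjusted p = 0.436, edgeR).

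PYGO2 (chromosome 1, 154957026 to 154963853) was covered by 1616 to 2460 reads per sample and had the narrowest interval of the group. Its CPM values were 76.5, 75.4, 76.5 and 77.2 with control siRNA and 71.7, 77.8, 75.4 and 76.0 with A20 siRNA. The A20 siRNA samples enclosed the control samples, with replicate 1 the lowest and replicate 2 the highest of all. For PYGO2 the log2 fold change was -0.02 (95% interval -0.08 to 0.04, adjusted p = 0.735, edgeR), an interval of 0.943-fold to 1.025-fold. Of its exonic length 9.14% is shared with SHC1 on the same strand.

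AXIN2 (chromosome 17, 65528563 to 65561648) is the feedback gene most used as a readout of canonical wnt-signaling. It was lower in every A20 siRNA sample, with 3.09, 3.29, 3.16 and 3.21 CPM in the control samples and 2.62, 2.76, 2.74 and 2.87 CPM after A20 siRNA. The groups did not overlap. The means were 3.19 ± 0.0823 and 2.75 ± 0.0996 CPM (SD, n = 4 each), so the level after A20 siRNA was 86.2% of the control level. The log2 fold change of -0.22 (standard error 0.11, 95% interval -0.44 to 0.01) did not pass the threshold (adjusted p = 0.324, edgeR). Unadjusted, edgeR gave p = 0.0554, and an exact two-sided permutation test of log2 CPM gave p = 0.0286, the smallest that 4 samples against 4 allow.

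AXIN2 rests on few reads. Between 76 and 93 reads were counted in the control samples and between 61 and 90 after A20 siRNA, for which counting alone gives a coefficient of variation of 11.3% per sample. The observed coefficients of variation were 2.58% and 3.62%, both below what counting alone gives, and edgeR holds the p-value at or above the counting limit. Summed over samples, 295 reads with A20 siRNA against 335 with control siRNA gave a ratio of 0.858 for equal depth, with an exact 95% interval of 0.732 to 1.01 that covers counting error only. A gene model on the same strand, itself with 0 reads in every sample, shares 25.3% of the exonic length of AXIN2 in GENCODE release 44. How reads over that stretch were assigned is not given in the sources used here, and its part in the level was not tested.

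NKD1 (chromosome 16, 50548396 to 50649249) went the other way. Its control samples had 15.1, 16.0, 15.5 and 15.2 CPM and its A20 siRNA samples had 18.0, 16.2, 16.3 and 16.1 CPM. The groups did not overlap, but 3 of the A20 siRNA samples lay within 0.3 CPM of the highest control sample and replicate 1 stood above the rest. The means were 15.45 ± 0.399 and 16.65 ± 0.897 CPM (SD, n = 4 each). The log2 fold change of 0.12 (95% interval 0.01 to 0.23) had an unadjusted p of 0.0376 and an adjusted p of 0.277 (edgeR). The exact two-sided permutation test again gave its smallest p of 0.0286, a value that the lack of overlap fixes. Without A20 siRNA replicate 1 the log2 fold change was 0.07 (adjusted p = 0.623, edgeR), and with the length and GC correction it was 0.06 (adjusted p = 0.609, edgeR).

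SP5 (chromosome 2, 170715337 to 170718078), whose upstream window with 3 TCF/LEF cores is printed above, had 31 to 50 reads per sample. Its levels were 1.36, 1.45, 1.77 and 1.31 CPM with control siRNA and 1.14, 1.79, 1.84 and 1.60 CPM with A20 siRNA. Replicate 1 of A20 siRNA was the lowest of all samples and replicates 2 and 3 were the highest. The SP5 log2 fold change was 0.09 with a 95% interval of -0.29 to 0.46 (adjusted p = 0.862, edgeR), which is an interval of 0.820-fold to 1.37-fold. Without A20 siRNA replicate 1 it was 0.25, and without replicate 3 it was 0.00.

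NOTUM (chromosome 17, 81952507 to 81961840) did not pass the filter. It had 14, 7, 7 and 11 reads in the control samples and 7, 6, 7 and 10 reads in the A20 siRNA samples, or 0.204 to 0.470 CPM. The groups overlapped, and the totals of 39 and 30 reads gave a ratio of 0.750 for equal depth with an exact 95% interval of 0.450 to 1.24 (counting error only). Of the 3 tested feedback targets, AXIN2 was below 0 and NKD1 and SP5 above 0 in log2 fold change, and none passed.

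By profile over the 8 samples, the tested genes most like AXIN2 in log2 CPM were ISCA1, SLC2A1 and BAHD1, with Pearson correlations of 0.985, 0.974 and 0.971 and Spearman correlations of 0.976, 0.952 and 0.976. Without the 2 samples farthest from the median of AXIN2 the Pearson correlations were 0.988, 0.957 and 0.951, and after removal of the group means from all 8 samples they were 0.872, 0.870 and 0.786. These are the highest of 13411 correlations, of which 64 exceeded 0.9, and are given as a description. ISCA1 (adjusted p = 0.0333, edgeR) and SLC2A1 (adjusted p = 0.0166, edgeR) were themselves called between the groups, and BAHD1 (adjusted p = 0.0953, edgeR) was not. The spread of AXIN2 within each group was below what counting alone gives. Its within-group correlations therefore cannot be told apart from counting noise.

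The other nuclear components of the pathway were taken from lists drawn up by name. Of 22 beta-catenin partners and coactivators 21 were tested. In edgeR 1 was higher and 0 were lower after adjustment, 6 had an unadjusted p under 0.05, and the median log2 fold change was 0.02. Over all tested genes 0.634% were higher, 0.611% were lower and 16.2% had an unadjusted p under 0.05. PYGO1, the paralog of PYGO2, had no read in any sample. Beta-catenin itself (CTNNB1) was the most abundant of the list, at 205.6 ± 4.10 TPM with control siRNA (SD, n = 4) and 203.2 TPM with A20 siRNA, and CARM1, TBL1XR1 and CTR9 followed between 130.3 and 171.9 TPM. The gene that rose was TRRAP, a scaffold of histone acetyltransferase complexes (chromosome 7, 98877933 to 99050831). TRRAP went from 349.3, 309.2, 327.0 and 327.9 CPM with control siRNA to 375.5, 343.9, 363.9 and 374.5 CPM with A20 siRNA. This is a log2 fold change of 0.15 with a standard error of 0.03 (adjusted p = 0.0334, edgeR). Control replicate 1 was above A20 siRNA replicate 2, so the groups overlapped. All 4 same-numbered pairs were higher with A20 siRNA, but whether the numbers pair the samples is not settled. With a correction for exonic length and GC content the log2 fold change was 0.08 (adjusted p = 0.0960, edgeR). With 1 sample left out it passed in 2 of 8 fits, without control replicate 1 (adjusted p = 0.00118) and without A20 siRNA replicate 2 (adjusted p = 0.0117), and reached adjusted p = 0.123 without control replicate 2.

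Of 17 TCF/LEF repressors, regulators of these and beta-catenin antagonists, 16 were tested and 0 passed in edgeR, DESeq2 or limma-voom. In edgeR 2 had an unadjusted p under 0.05, RUVBL2 and XIAP, and the median log2 fold change was -0.01. Among all tested genes edgeR called 1.25%, and 16.2% had an unadjusted p under 0.05, so these counts were near the background. RUVBL2, an ATPase that opposes its partner RUVBL1 in beta-catenin-dependent transcription, and the deacetylase HDAC1 were the most abundant at 235.1 to 262.9 and 223.5 to 235.3 TPM. The short Groucho-type protein TLE5 and the demethylase KDM1A had 94.3 to 99.0 and 68.0 to 70.7 TPM. SOX17, which binds beta-catenin and holds it from TCF, had no read.

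Of 32 other genes known as Wnt targets in some tissue, 18 were tested and 0 passed in edgeR, DESeq2 or limma-voom, with 2 at an unadjusted p under 0.05 in edgeR and a median log2 fold change of 0.02. These counts too were near the background of 1.25% and 16.2%. Levels of the tested targets ran from 0.305 TPM in the lowest sample of EPHB3 to 860.2 TPM in the highest of JUN. The growth genes JUN, FOSL1, MYC and CCND2, which many other pathways also control, were the 4 most abundant by mean and lay at or above 205.6 TPM. The remaining 14 genes did not pass the filter, which is 43.8% of the list where 42.4% of all protein-coding genes did not pass. LGR5, the intestinal stem cell marker, the secreted antagonist DKK1, the inhibitor APCDD1 and the intestinal factor CDX1 had no read in any of the 8 samples, as had 9 of the 32 in all, where 24.9% of all protein-coding genes had none.

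**Figure D4:**
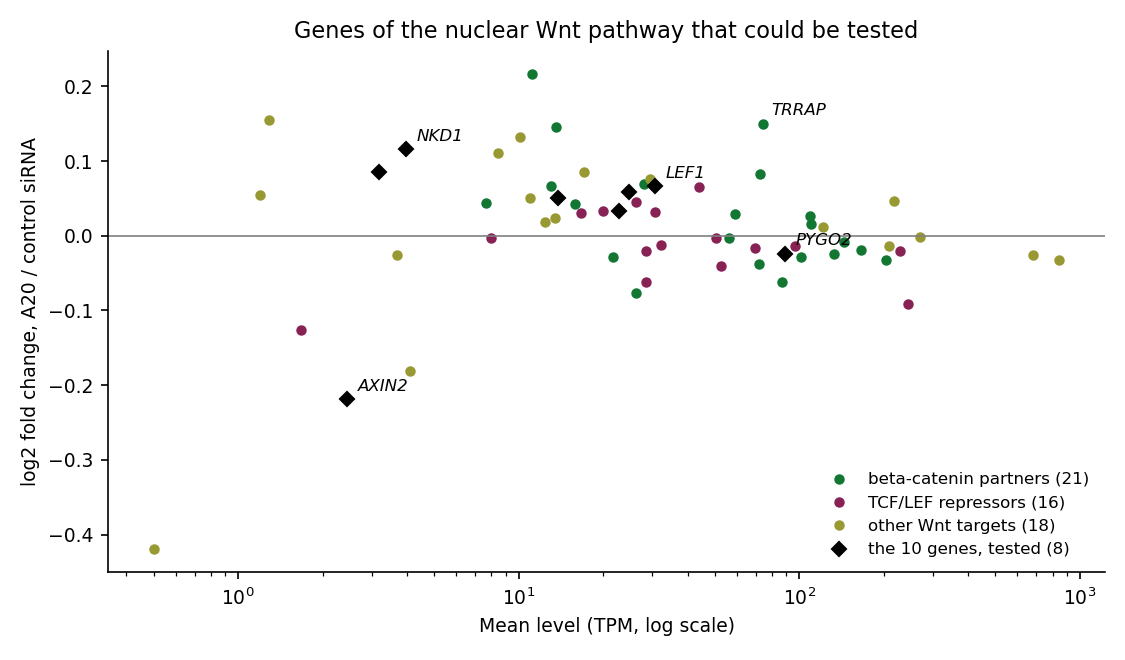
Mean level in TPM (horizontal log axis) against log2 fold change of A20 siRNA over control siRNA for the tested genes. Shown are beta-catenin partners (green), TCF/LEF repressors and their regulators (wine), other Wnt targets (olive) and the 8 tested genes of the group (black diamonds). TRRAP alone among the plotted genes passed the adjusted threshold of 0.05. The point at the bottom is EPHB3, at -0.42 with an adjusted p of 0.539 (edgeR).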

How the data were processed

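RNAseq of 8 RKO samples was analysed, grouped by siRNA from the sample labels. The authors trimmed reads with Trimmomatic, mapped them to GRCh38.p7 with STAR, and deposited raw STAR counts of uniquely mapped reads for 57992 genes of a GENCODE annotation (the submitters' processing notes also name DESeq2). Its release, the tool versions and the strand setting are not given in the sources used here. In GENCODE release 44, 56948 genes matched by Ensembl identifier without version, and this gave symbols, coordinates and exonic lengths. Counts were tested with edgeR 4.0.16 in R 4.3.3 (TMM, filterByExpr with a minimum count of 10, quasi-likelihood test, no covariate, Benjamini-Hochberg over 13412 genes, threshold 0.05). Standard errors and 95% intervals were derived from the log2 fold change and its p-value. CPM used TMM library sizes. A pseudocount of 0.5 CPM was added for permutation tests. Replicate pairs within a group differed by more than counting noise. The pipeline was tested on simulated data.

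Alternatives were RLE normalization, 2 other filters, DESeq2 1.42.0, limma-voom (limma 3.58.1), the replicate number as a block, a loess correction per sample for exonic length and GC content (span 0.5), both together, leaving out each sample, and the longest transcript as length. The members and lists were chosen with earlier results of these data known. The named genes were the members, TNFAIP3, list genes with an adjusted p-value under 0.05, the 4 tested genes per list with the highest TPM, the 4 untested Wnt targets with the fewest counts, and the 3 genes most correlated with AXIN2. Other genes named, such as PYGO1, SOX17, KMT2A, EP300, RUVBL1, EPHB3 and the cell type markers, were chosen after their values were seen or to check the cell line.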

Additional observations from a re-analysis of the deposited data

Results flagged for a closer look

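Among 44 groups of 4 samples, of the members and named pathway genes, 3 had a sample set apart from the other 3, where chance gives 2.2. For NKD1, A20 siRNA replicate 1 had 17.99 CPM against 16.13 to 16.26 in the other A20 siRNA samples. For CTNNB1, A20 siRNA replicate 2 had 560.6 CPM against 550.6 to 551.1. For TNFAIP3, A20 siRNA replicate 2 had 3.008 CPM against 3.399 to 3.470.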

How the results depend on the processing

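For the 8 tested members, all 126 log2 fold changes under the other settings kept their direction and none passed the adjusted threshold. No member was called in any fit, and DESeq2 gave no adjusted p for AXIN2, SP5 or TNFAIP3 (log2 fold change of TNFAIP3 -0.72). AXIN2 ranged from -0.24 to -0.20 with 1 sample left out (adjusted p 0.240 to 0.507). TNFAIP3 ranged from -0.77 to -0.67 and passed in all 8 of these fits.

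Whether the replicate numbers pair the samples is not settled by these data. Deviations of same-numbered samples correlated by -0.009 to 0.079, and 4 of 8 samples correlated best with their own number. With the replicate block 262 genes were higher and 212 lower, against 85 and 82. No low-count filter gave 314 and 310, the length and GC correction 238 lower, and the replicate block with that correction 193 and 432. Leaving out 1 sample gave 6 to 567 higher and 6 to 430 lower, with the lowest counts without A20 siRNA replicate 3 and the highest without control replicate 1. The cause was not tested.

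Among beta-catenin partners, 1 gene was higher. RLE normalization gave 2 (TRRAP and KMT2A), no low-count filter 3 (also EP300), the replicate block 2, and the block with the correction 2. The length and GC correction called KMT2A in place of TRRAP. Leaving out 1 sample gave 0 to 3 higher and 0 to 1 lower. RUVBL1 was lower, making 1, with the block and the correction together. RUVBL2, among the repressors, was lower, making 1 against 0, without a low-count filter, with the replicate block, with the length and GC correction and with both, and 0 to 1 with 1 sample left out.

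With the longest transcript as length, mean TPM was 18.6 for TCF7, 26.8 for TCF7L2, 32.5 for LEF1, 18.0 for BCL9, 72.8 for PYGO2, 2.13 for AXIN2, 2.88 for NKD1 and 2.29 for SP5, against 13.8, 22.8, 30.5, 24.8, 88.9, 2.45, 3.97 and 3.18. Depth limits TCF7L1 most, then NOTUM, SP5 and AXIN2, with counting errors per sample of 163.3%, 34.1%, 15.7% and 11.3% of the mean.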

Other observations

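A20 siRNA replicate 1, the deepest library, was the lowest or highest of its group for all 8 tested members. It was highest for TCF7 and NKD1 and lowest for TCF7L2, LEF1, BCL9, PYGO2, AXIN2 and SP5. Over all tested genes it was at an extreme of its group for 47.2%, and the other libraries were for 45.0% to 57.3% of genes and for 2 to 5 of the 8 members. Without it the log2 fold change was 0.09 for LEF1, -0.20 for AXIN2, 0.07 for NKD1, 0.25 for SP5 and -0.003 for PYGO2, and none passed the adjusted threshold. This pattern was seen in the data and was not tested.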
